A study of Mus musculus with 4 samples.

Results

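The meiotic strand exchange genes are a set of 8 genes named for this description, out of 22367 protein-coding genes of the GENCODE annotation of mm9. They are Dmc1, Psmc3ip, Mnd1, Brca2, Tex15, Spata22, Rpa1 and Rad51c, and all 8 were found in the annotation. They were chosen by name and function, not by a measured value, though with earlier results of these data known. For each gene the data give the share of its span that lay in broad regions of trimethylated lysine 36 of histone H3 (H3K36me3), the distance from its 5′ end to the start of the region, and the refined peaks inside it. Broad regions are the wide enriched stretches that the peak caller ZINBA reported, and refined peaks are the narrow maxima it placed within them.

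H3K36me3 ChIP-seq was performed on spermatocytes of B6 and KI mice at 14 days post-partum. B6 is C57BL/6J. KI is B6.Cg-Prdm9<tm1.1Kpgn>/Kpgn, the same background with the exon for the zinc finger array of Prdm9 taken from the CAST/EiJ allele, so that both strains share the rest of the genome and each makes a PRDM9 protein with its own DNA binding specificity. The chromatin was cut with MNase, and the input of each strain, labelled 15 days post-partum, served as its control. The authors merged 2 biological replicates per strain before calling, so each strain has 1 list of each kind. The values below therefore carry no error from replicates, and no test between strains was possible. The lists hold positions only, with no score or read number, and the depth behind a region is unknown. The paper also calls the cells germ cells, and the values are pooled over many cells. Fewer cells with the mark and less of the mark per cell therefore cannot be told apart.

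In meiosis, programmed DNA breaks are cut back to single strands, which RPA coats first. Recombinases such as DMC1 then replace RPA with the help of BRCA2 and other mediators and carry the strand into the homologous chromosome, a step for which DMC1 needs the HOP2-MND1 complex. H3K36me3 is known above all as a mark that SETD2 lays down along the bodies of transcribed genes, beginning some way after the promoter, and PRDM9 adds it at recombination hotspots.

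Of the 8 genes, 7 lay under a single broad region in each strain. Their coverage lay between 72.6% and 99.9% in B6 and between 74.5% and 99.4% in KI, while the other gene, Mnd1, was covered over 39.3% in B6 and 29.5% in KI, in separate pieces. Over all 8 genes the median was 97.0% in B6 and 96.5% in KI. The genes spanned 336 kb in all, of which 84.5% lay in broad regions in B6 and 82.4% in KI. Without Mnd1 these shares were 96.0% and 95.8%.

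Counts over the 8 genes stood beside those over all protein-coding genes. At least 50% of the span was covered for 7 of 8 genes in both strains, against 43.0% of all genes in B6 and 41.2% in KI. At least 90% was covered for 6 of 8 genes in both strains, against 26.5% of all genes in B6 and 23.6% in KI. Since 7 of the 8 genes were between 20 and 100 kb long, they were also set beside the 7317 genes of that length. Of these 7 genes, 5 were at least 90% covered in both strains, against 40.3% of genes of that length in B6 and 35.5% in KI. The median coverage of genes of that length was 73.9% in B6 (quartiles 4.81% and 96.5%) and 65.1% in KI (quartiles 6.29% and 95.3%).

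**Figure D1:**
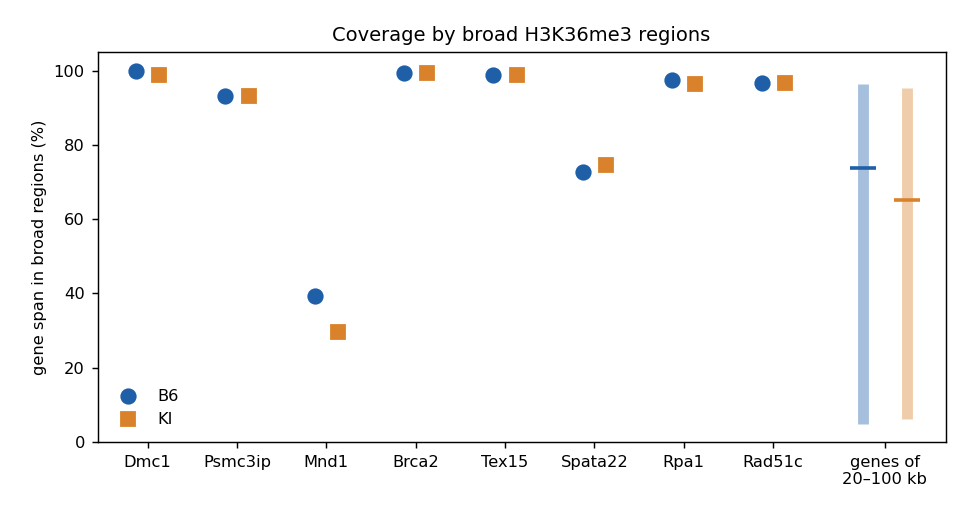
Share of each gene's span in broad regions (vertical axis, %) in B6 (circles) and KI (squares), 1 pooled list per strain, with the quartiles (bars) and median (lines) of all genes of 20 to 100 kb at the right. Mnd1 sits at 39.3% in B6 and 29.5% in KI, Spata22 at 72.6% and 74.5%, and the other genes are above 90% in both strains.

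Dmc1 encodes the meiosis-specific recombinase that forms the strand exchange filament. It lies at chr15:79391930-79435529 (mm9, minus strand, ENSMUSG00000022429.9, 43.6 kb, 14 exons). Broad regions covered 99.9% of it in B6 and 98.8% in KI. The B6 region began 29 bp after the 5′ end, inside exon 1, and the KI region began 529 bp after it, in intron 1. This is a difference of 1 step of the 500 bp grid on which the caller set its regions. Both regions ran 3929 bp past the 3′ end. Exon 1 of the coding transcript was in the B6 region and not in the KI region, and the other 13 exons were in both.

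The stretch just before the 5′ end is shown because no broad region of either strain entered it. It spans the 250 bases chr15:79435530-79435779 and is read 5′ to 3′ on the minus strand, ending next to the first base of the gene. Capitals mark matches, on either strand, to any of the motifs GGGCGG (GC box), CCAAT (the site of NF-Y), CACGTG (E-box), TCCCGC (the core of an E2F-type site) and TGACGTCA (cyclic AMP response element).
Dmc1 upstream: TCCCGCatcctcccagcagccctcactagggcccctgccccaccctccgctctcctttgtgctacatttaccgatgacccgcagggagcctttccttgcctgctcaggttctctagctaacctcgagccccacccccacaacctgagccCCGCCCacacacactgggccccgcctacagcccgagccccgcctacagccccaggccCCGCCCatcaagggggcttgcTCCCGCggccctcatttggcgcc
It held 2 matches to GGGCGG and 2 to TCCCGC, with a GC content of 68.0% and 13 CpG dinucleotides.

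Inside Dmc1 the refined peaks of the strains lay apart. B6 had 1, at chr15:79430104-79430732 (629 bp), 4797 bp into the gene and over exon 4. KI had 2, of 283 bp in intron 7 and 740 bp in intron 12, and the nearest was 8114 bp from the B6 peak. All 3 lay inside the broad region of the other strain. The part of the B6 peak around exon 4, chr15:79430399-79430698 on the minus strand, is shown with the exon in capitals, since this is the only exon of Dmc1 that a refined peak touched.
Dmc1 exon 4: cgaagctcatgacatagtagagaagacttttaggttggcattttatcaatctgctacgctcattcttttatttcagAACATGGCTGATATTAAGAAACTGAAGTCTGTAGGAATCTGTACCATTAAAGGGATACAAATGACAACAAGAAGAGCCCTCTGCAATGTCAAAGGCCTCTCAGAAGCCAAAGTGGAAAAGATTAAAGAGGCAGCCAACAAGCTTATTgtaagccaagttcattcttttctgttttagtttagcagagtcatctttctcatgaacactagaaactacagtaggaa

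Psmc3ip encodes HOP2, the partner of MND1 in the accessory complex of DMC1. It lies at chr11:100953137-100956750 (minus strand, ENSMUSG00000019303.8, 8 exons) and is the shortest of the set at 3.61 kb. Broad regions covered 93.1% in both strains and began 250 bp after the 5′ end, in exon 2. The region was the same in both strains, 7500 bp long, and ran 4136 bp past the 3′ end. It also held much of Mlx, which encodes a MAX-like transcription factor, is transcribed towards Psmc3ip and overlaps it by 385 bp. Mlx was covered over 91.7% in both strains, so the mark over the 3′ part of Psmc3ip cannot be assigned to one of the genes.

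The refined peaks of Psmc3ip differed in width. The B6 peak, chr11:100953511-100956500, was 2990 bp wide, touched exons 2 to 8 and was number 44 by width among the 58502 refined peaks of B6. The KI peak, chr11:100953486-100953710, was 225 bp wide and touched exon 8 outside its coding part. They overlapped by 200 bp, and both also touched Mlx. The B6 peak ended, at the 5′ side, where the broad region ended, next to the first 250 bp, which no region covered. The bases before the 5′ end, chr11:100956751-100957000, are given with the same marking.
Psmc3ip upstream: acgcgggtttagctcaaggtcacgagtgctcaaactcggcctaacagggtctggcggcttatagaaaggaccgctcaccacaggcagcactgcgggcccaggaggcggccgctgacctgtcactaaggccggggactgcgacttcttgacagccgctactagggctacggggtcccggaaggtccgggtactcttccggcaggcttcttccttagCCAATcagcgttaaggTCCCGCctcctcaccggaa
A CCAAT box and a TCCCGC match lay near its 3′ end, and it held 19 CpG.

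Mnd1, the other subunit of the HOP2-MND1 complex, had the lowest coverage of the 8 genes. It lies at chr3:83891856-83959708 (minus strand, ENSMUSG00000033752.6, 67.9 kb, 8 exons). Of its span, 22.8% was covered in both strains, 16.4% in B6 only, 6.63% in KI only and 54.1% in neither. The covered length was 26.6 kb in B6 and 20 kb in KI, of which 15.5 kb was shared. The shared part was 58.2% of the B6 bases and 77.5% of the KI bases. Coverage was lower in KI by 9.79 points. Among genes of 20 to 100 kb, 40% in B6 and 39.3% in KI had a lower coverage than Mnd1. When only broad regions of at least 3000 bp were kept, the coverage of Mnd1 was 27.3% in B6 and 5.90% in KI.

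The mark over Mnd1 came in short regions with gaps between them. B6 had 8, from 2000 to 6000 bp long, which started 3.71, 20.7, 35.2, 42.7, 46.7, 49.2, 60.2 and 66.7 kb from the 5′ end. KI had 5, from 2000 to 8500 bp, which started 4.71, 22.2, 32.7, 47.2 and 60.2 kb from it. Of the B6 regions 5 overlapped a KI region, and of the KI regions 4 overlapped a B6 region. The largest gap was 14500 bp in B6 and 15500 bp in KI. At least 5 separate regions were seen in 1 of the 7 genes of 20 to 100 kb, which is Mnd1, against 5.66% of all genes of that length in B6 and 7.90% in KI. The nearest region to the 5′ end began at 3708 bp in B6 and 4708 bp in KI, in intron 1 in both, so that exon 1 lay outside the regions. Broad regions reached exons 4, 6, 7 and 8 in B6 and exons 6 and 7 in KI.

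Mnd1 held as many refined peaks as all other members together in B6, 8 of 16, and 8 of 19 in KI. This is 1.18 per 10 kb in each strain. In B6 each of the 8 regions over Mnd1 held 1 refined peak. In KI the peaks were as many as the regions before touching ones were merged. The count thus repeats the division of the mark into pieces. In B6, 1 of the peaks touched an exon, the last one, exon 8. In KI, 2 touched an exon, exon 6 and exon 7. Only 1 pair overlapped, over the 216 bases chr3:83898214-83898429 in intron 6, while 3 of the B6 peaks and 2 of the KI peaks touched no broad region of the other strain. Such peaks were seen in no other member.

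Several stretches of Mnd1 are printed, all on the minus strand. The first is the 250 bases before the 5′ end, chr3:83959709-83959958, with motif matches in capitals. The next is the shared stretch in intron 6, which has no exon base and so no capitals. The last is the KI peak over exon 6, chr3:83908772-83909040, with the exon in capitals.
Mnd1 upstream: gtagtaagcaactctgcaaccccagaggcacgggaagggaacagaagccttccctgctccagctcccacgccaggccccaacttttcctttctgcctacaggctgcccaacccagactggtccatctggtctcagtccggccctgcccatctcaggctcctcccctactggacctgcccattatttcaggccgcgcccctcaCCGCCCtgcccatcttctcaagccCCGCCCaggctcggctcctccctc
Mnd1 intron 6, shared: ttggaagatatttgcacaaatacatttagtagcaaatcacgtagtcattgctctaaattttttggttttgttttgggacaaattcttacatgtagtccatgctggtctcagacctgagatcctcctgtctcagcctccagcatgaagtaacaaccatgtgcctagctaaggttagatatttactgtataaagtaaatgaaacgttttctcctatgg
Mnd1 exon 6: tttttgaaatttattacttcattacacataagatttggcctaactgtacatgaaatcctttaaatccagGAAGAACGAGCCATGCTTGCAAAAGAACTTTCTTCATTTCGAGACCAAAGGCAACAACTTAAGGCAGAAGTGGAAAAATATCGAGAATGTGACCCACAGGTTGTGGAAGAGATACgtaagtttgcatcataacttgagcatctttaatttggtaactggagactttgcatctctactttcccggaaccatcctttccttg
The upstream stretch held 2 matches to GGGCGG and 8 CpG, the fewest of the 8 genes.

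Markers of Sertoli cells, the somatic cells that nurse the germ line, were covered more widely in B6 than in KI, as was Mnd1. Median coverage was also higher in B6 over all genes of 20 to 100 kb, at 73.9% against 65.1% in KI. The direction is thus not particular to these markers or to Mnd1. Of 5 Sertoli cell markers, the coverage lay between 5.19% and 71.7% in B6 and between 0% and 8.49% in KI, with 1 gene at least 50% covered in B6 and 0 in KI. Wt1, a transcription factor of Sertoli cells, was covered over 71.7% in B6 and 8.49% in KI, and Sox9, which drives Sertoli cell fate, over 45.2% and 0%. Spermatogonial markers also stood higher in B6, with a median over 4 genes of 86.5% against 74.9%. The 8 spermatocyte markers were between 82.4% and 100% in both strains and at least 50% covered in 8 of 8. Of 5 spermatid markers, 4 were at 0 in B6 and 3 in KI, and 2 differed in opposite directions. Prm2, a protamine gene of only 0.723 kb, was at 0% in B6 and 100% in KI, and Acrv1, an acrosomal protein gene, at 100% in B6 and 21.3% in KI. Of 5 Leydig cell markers, 4 were at 0 in B6 and 3 in KI, with Star at 100% in both, and 4 markers of blood and endothelium lay between 0% and 24.5% in B6 and between 0% and 3.63% in KI. The part of these cells in the values of Mnd1 was not tested.

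**Figure D2:**
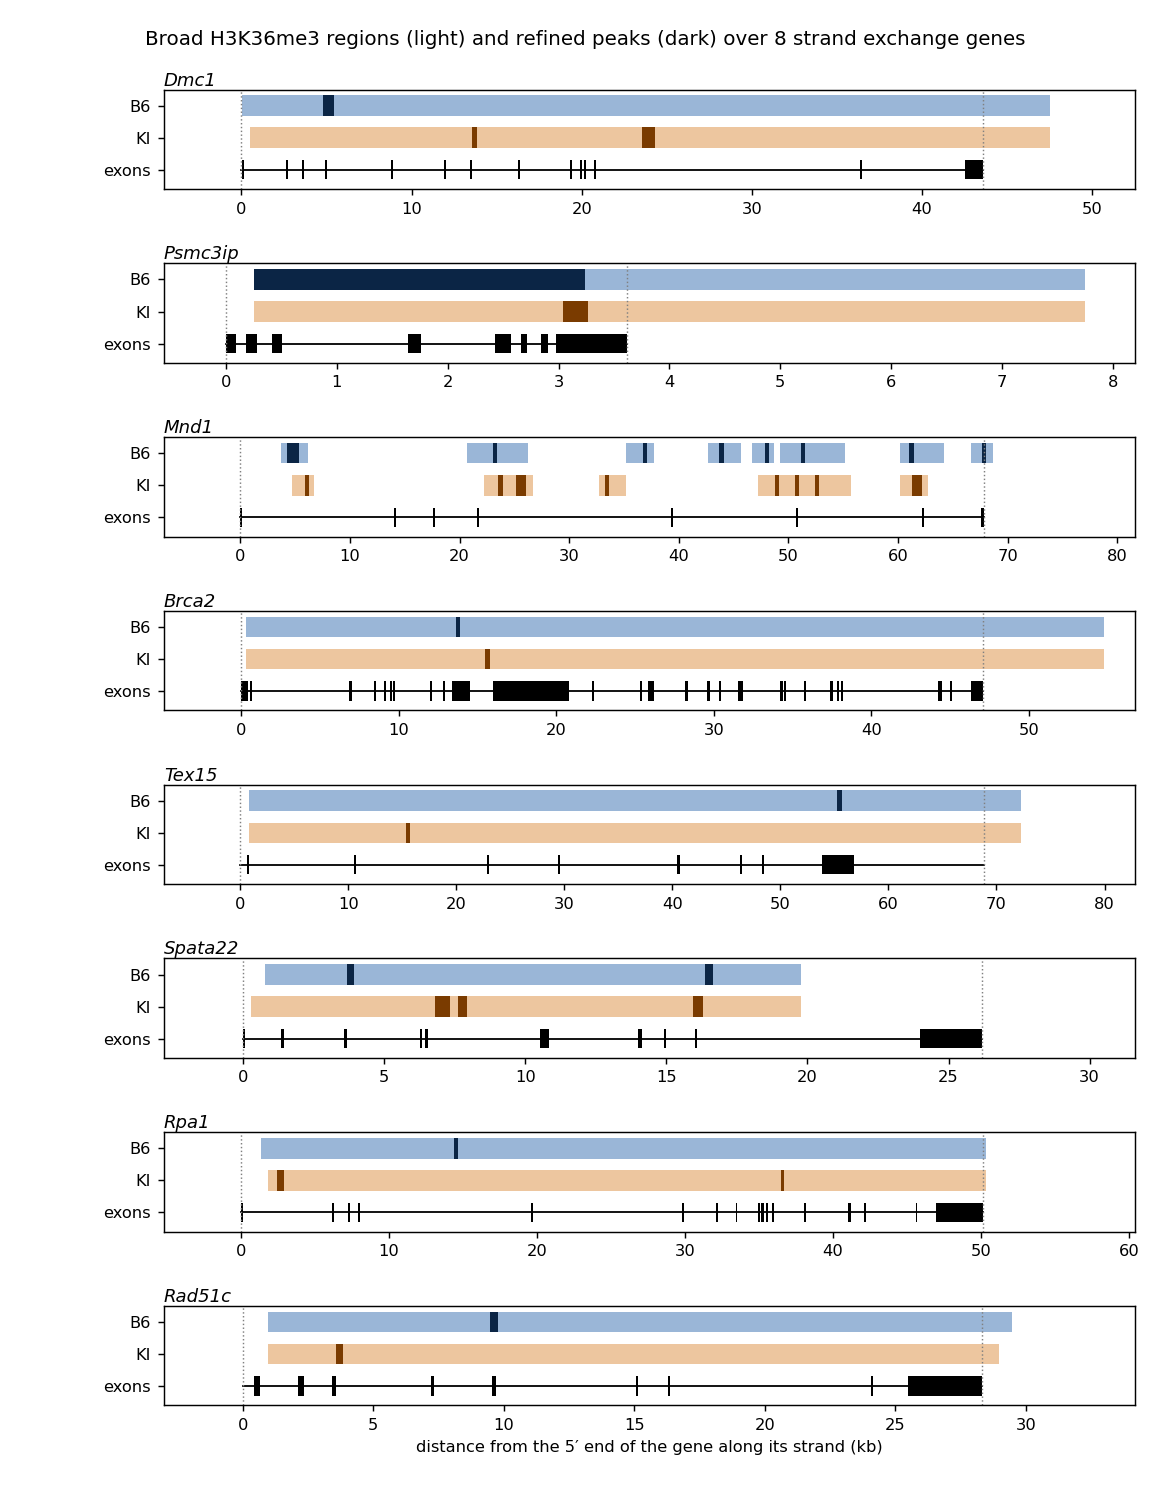
Maps of the 8 genes, drawn from the 5′ end along each gene's own strand (horizontal axis, kb, a separate scale for each gene), with broad regions (light) and refined peaks (dark) in B6 and KI above the exons of the longest coding transcript; dotted lines mark the gene ends. Mnd1 shows 8 regions in B6 and 5 in KI, each of the other genes 1 per strain, and the region over Spata22 ends 6415 bp before the 3′ end.

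Brca2 encodes the mediator that loads recombinases onto RPA-coated single strands. It lies at chr5:151325205-151372321 (plus strand, ENSMUSG00000041147.7, 47.1 kb, 27 exons). Broad regions covered 99.4% in both strains. The region was the same in both, 54500 bp long, began 296 bp after the 5′ end, within exon 1, and ran 7679 bp past the 3′ end into N4bp2l1, which is transcribed towards Brca2. N4bp2l1 was covered over 25.3% in B6 and 44.9% in KI. All 27 exons of Brca2 were touched by the region in both strains, and 26 lay in it whole.

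Brca2 had 1 refined peak in each strain, 1545 bp apart. The B6 peak, chr5:151338866-151339128, lay wholly in the coding sequence of exon 10, and the KI peak, of 307 bp, in intron 10. The 250 bases before the gene, chr5:151324955-151325204 on the plus strand, and the whole B6 peak follow. Capitals mark motifs in the first and exon bases, here all bases, in the second.
Brca2 upstream: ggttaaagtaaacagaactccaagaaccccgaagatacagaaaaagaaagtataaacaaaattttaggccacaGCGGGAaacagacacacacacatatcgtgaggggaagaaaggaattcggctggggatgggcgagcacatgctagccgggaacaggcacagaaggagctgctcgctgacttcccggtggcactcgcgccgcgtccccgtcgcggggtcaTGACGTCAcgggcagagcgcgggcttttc
Brca2 exon 10: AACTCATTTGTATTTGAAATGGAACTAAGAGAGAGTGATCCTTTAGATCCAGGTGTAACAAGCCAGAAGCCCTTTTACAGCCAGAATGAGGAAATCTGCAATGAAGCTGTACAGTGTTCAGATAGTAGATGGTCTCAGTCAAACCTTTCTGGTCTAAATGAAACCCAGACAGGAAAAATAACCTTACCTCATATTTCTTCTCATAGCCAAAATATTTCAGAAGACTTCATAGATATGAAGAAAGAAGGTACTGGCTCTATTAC
The upstream stretch was the only one of the 8 with TGACGTCA, which 1.91% of all genes had.

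Tex15 encodes a large testis protein needed in mice for loading the recombinases on breaks. It is the longest of the set at 68.8 kb (chr8:34627210-34696054, plus strand, ENSMUSG00000009628.8). Coverage was 98.9% in both strains, by the same region of 71500 bp, which began 791 bp after the 5′ end and ran 3446 bp past the 3′ end. Measured from the 5′ end of the longest coding transcript, Tex15-002, the region began at 205 bp. Each strain had 1 refined peak. That of B6, 505 bp, lay in the coding sequence of exon 8 of this transcript, and that of KI, 236 bp, lay in its intron 2, 39589 bp from the nearest refined peak of B6.

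Spata22 encodes a partner of MEIOB, with which it binds RPA and single-stranded DNA. It lies at chr11:73143243-73169415 (plus strand, ENSMUSG00000069825.5, 26.2 kb, 10 exons). Broad regions covered 72.6% in B6 and 74.5% in KI. The region began 758 bp after the 5′ end in B6 and 258 bp after it in KI, a difference of 1 step of the grid, and stopped 6415 bp before the 3′ end in both. No other of the 7 genes under a single region ended so. The annotation gives a shorter coding transcript, Spata22-001, of 16.3 kb, which was covered over 95.4% in B6 and 98.4% in KI. The uncovered stretch also holds Olfr20, an olfactory receptor gene on the same strand, which was at 0 in both strains.

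Ahead of Spata22 the strains differed. Of the 5 kb before the gene, 80.0% was covered in KI and 0% in B6, while the nearest 250 bp were free in both. B6 had refined peaks in intron 3 (230 bp) and intron 9 (292 bp). KI had 2 in intron 5 (526 and 309 bp) and 1 over exon 9 (371 bp). The closest pair, the B6 peak of intron 9 and the KI peak of exon 9, were 51 bp apart and did not overlap.

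Rpa1 encodes the large subunit of RPA, the general single-strand binding complex, which is used in replication and repair in all cells. It lies at chr11:75111668-75161826 (minus strand, ENSMUSG00000000751.7, 50.2 kb, 17 exons). Broad regions covered 97.4% in B6 and 96.4% in KI. They began 1326 bp after the 5′ end in B6 and 1826 bp after it in KI, the farthest of the 7 genes under a single region, and ended 167 bp past the 3′ end in both. Exon 1 lay outside the regions, and the other 16 exons lay in them in both strains. B6 had 1 refined peak, of 197 bp in intron 4, the narrowest in the set. KI had 2, of 446 bp in intron 1 and 245 bp in intron 12.

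Rpa1 and Rad51c each share a short upstream stretch with a gene that runs the other way. Rpa1 faces Smyd4, a gene for a SET and MYND domain protein, across 108 bases, and Smyd4 was covered over 98.1% in both strains from 566 bp after its own 5′ end. Rad51c faces Tex14, a gene for a protein of the bridges between germ cells, across 110 bases. Smyd4 and Tex14 were picked after their values were seen. The stretches are chr11:75161827-75161934 for Rpa1 and chr11:87218457-87218566 for Rad51c. They are printed whole on the minus strand, with the motif matches in capitals.
Rpa1 to Smyd4: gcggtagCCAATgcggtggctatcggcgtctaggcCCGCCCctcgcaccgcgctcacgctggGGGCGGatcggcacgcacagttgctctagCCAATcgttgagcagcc
Rad51c to Tex14: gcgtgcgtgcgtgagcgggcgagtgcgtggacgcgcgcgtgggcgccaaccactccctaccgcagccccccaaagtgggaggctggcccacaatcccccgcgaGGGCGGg
In the 250 bases before each gene, Rpa1 had 3 matches to GGGCGG, 2 to CCAAT, 1 to CACGTG and 2 to TCCCGC, and Rad51c had 1 to GGGCGG. These windows run on into Smyd4 and Tex14. For Rpa1, 1 match to GGGCGG and all those to CACGTG and TCCCGC are not within the printed stretch.

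Rad51c encodes a member of the recombinase family that works in complexes with its paralogs. It lies at chr11:87190147-87218456 (minus strand, ENSMUSG00000007646.7, 28.3 kb). Coverage was 96.6% in both strains, and the region began 956 bp after the 5′ end in both. It ended 1146 bp past the 3′ end in B6 and 646 bp past it in KI. The refined peak of B6 (291 bp) lay over exon 5 and that of KI (247 bp) in intron 3, 5650 bp apart. Upstream, a B6 region over Tex14 began 66 bp before the 5′ end of Tex14, so that 206 of the 250 bases before Rad51c were covered in B6 and 0 in KI. The KI region over Tex14 began 434 bp after its 5′ end. Tex14 itself was covered over 89.4% in B6 and 85.8% in KI.

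No broad region of either strain covered the 5′ end of any of the 8 genes. Ordered by the distance from the 5′ end, the B6 regions began at 29 bp in Dmc1, 250 bp in Psmc3ip, 296 bp in Brca2, 758 bp in Spata22, 791 bp in Tex15, 956 bp in Rad51c, 1326 bp in Rpa1 and 3708 bp in Mnd1. The KI order began with Psmc3ip at 250 bp, Spata22 at 258 bp and Brca2 at 296 bp, followed by Dmc1 at 529 bp, and was otherwise the same. With the grid of 500 bp, neighbours in this order such as Psmc3ip and Brca2, or Spata22 and Tex15 in B6, lie within 1 step. The medians were 774 bp in B6 and 660 bp in KI. When regions within 1000 bp of each other were joined, the region began upstream of the gene for Psmc3ip in both strains, for Rad51c in B6 and for Spata22 in KI.

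Among the genes at least 50% covered, the nearest region began after the 5′ end in 7 of 7 members in both strains, against 88.6% of all such genes in B6 and 88.4% in KI. The 250 bp before the gene were free of broad regions in 6 of 7 members in B6 and 7 of 7 in KI, against 86.3% and 86.0%. Both counts were near those of all covered genes. For all genes at least 50% covered, the median start was 948 bp in B6 (quartiles 456 and 1815 bp) and 972 bp in KI (quartiles 447 and 1895 bp).

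At the first base of the gene 0 of 8 members were covered in both strains, where 11.4% of all genes at least 50% covered were in B6 and 11.6% in KI. At 1000 bp 6 of 8 were covered in both strains, against 51.0% and 49.9%, and at 2000 bp 7 of 8, against 76.5% and 75.3%. Without Mnd1, which the compared genes leave out, these were 6 of 7 and 7 of 7 in both strains. At the 3′ end 7 of 8 members were covered in B6 and 6 in KI, and without Mnd1, which is less than 50% covered, 6 of 7 were in both strains, where 93.3% and 92.3% of all covered genes were. At 3000 bp beyond it 4 of 8 were covered in both strains, or 4 of 7 without Mnd1, against 61.9% and 59.3%. The members that reached that far were Dmc1, Psmc3ip, Brca2 and Tex15, and those that did not were Mnd1, Spata22, Rpa1 and Rad51c.

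**Figure D3:**
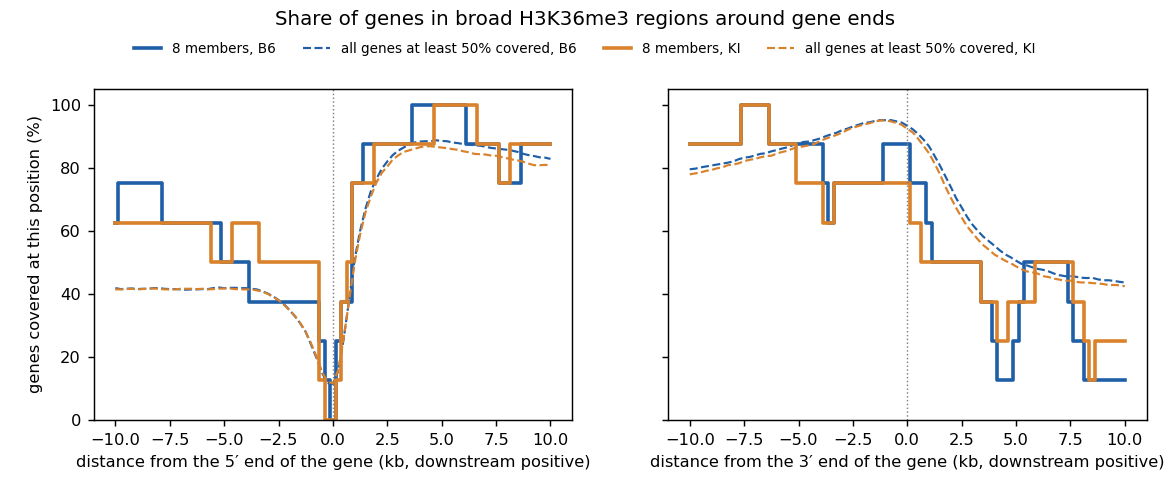
Share of genes in a broad region (vertical axis, %) by distance from the 5′ end (left) and the 3′ end (right) (horizontal axes, kb), for the 8 members (solid steps) and for all genes at least 50% covered (dashed), in B6 (blue) and KI (orange). The 8 members include Mnd1, which is less than 50% covered. At the 5′ end 0 of 8 members are covered, at 2 kb 7 of 8, and the dashed lines are lowest near the 5′ end, where they stand at 11.4% in B6 and 11.6% in KI.

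The 250 bases before the 8 genes had a GC content from 52.8% in Tex15 to 69.6% in Rpa1, where the median of all genes was 54.0% (quartiles 46.0% and 62.8%). The CpG count ran from 8 in Mnd1 to 30 in Rpa1, where the median of all genes was 8 (quartiles 3 and 18). TCCCGC was present in 5 of 8 genes and in 20.4% of all genes, GGGCGG in 4 of 8 and 39.6%, CCAAT in 4 of 8 and 35.0%, and CACGTG, in Tex15 and Rpa1, in 2 of 8 and 6.52%. Both strands were searched, and the matches to TCCCGC and GGGCGG can share bases. The windows were not cut at neighbouring genes, for the members or for all genes. The matches of Rpa1 to TCCCGC and CACGTG are in the part of its window that runs into Smyd4 or at its edge. A match is a description of the letters and does not show a bound factor.

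Between strains, coverage of a gene was the same in 4 of 8 members (Psmc3ip, Brca2, Tex15 and Rad51c), and so was the start. A difference of at least 10 points was seen in 0 of 8 members, against 17.1% of all genes, and in 0 of the 7 members at least 50% covered, against 13.5% of all genes at least 50% covered in both strains. Mnd1, at 9.79 points, was just under this limit. The next largest differences were 1.91 points in Spata22, higher in KI, and 1.15 points in Dmc1, higher in B6.

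At least 1 refined peak lay in 8 of 8 members in both strains, against 52.7% of all genes in B6 and 54.9% in KI. All refined peaks lay in broad regions, and a region was listed once for each refined peak it held. This count therefore largely repeats the coverage and is not read as a separate trait. There were 16 in B6 and 19 in KI. Outside Mnd1 there were 8 in B6 and 11 in KI, or 0.299 and 0.411 per 10 kb. Genes at least 50% covered held 0.766 per 10 kb in B6 and 0.991 in KI, and genes covered less held 0.254 and 0.299. Member by member the rate varied. Psmc3ip, the shortest, had 2.77 per 10 kb in both strains with its single peak, and Spata22 had 0.764 in B6 and 1.15 in KI, while the other 5 genes under a single region lay between 0.145 and 0.353 in B6 and between 0.145 and 0.459 in KI. The median width was 321 bp in B6 and 317 bp in KI, where all refined peaks had medians of 313 and 319 bp.

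The refined peaks of the 8 genes were set beside all refined peaks in protein-coding genes. In each strain 2 of them overlapped a refined peak of the other, those of Psmc3ip and 1 in Mnd1. These were 2 of 16 in B6, where 19.0% of all refined peaks in genes did so, and 2 of 19 in KI, where 15.9% did. Of the 16 in B6, 12 lay wholly in a broad region of KI, against 58.4% of all, and of the 19 in KI, 16 lay wholly in one of B6, against 78.3%. An exon was touched by 6 of 16 in B6 and 4 of 19 in KI, against 19.9% and 18.9%, and coding sequence by 6 of 16 and 3 of 19, against 13.5% and 13.2%. With so few peaks, nothing particular to these genes is read from these counts. Within 1000 bp of a 5′ end there was 1 in B6, that of Psmc3ip, and 0 in KI.

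The other genes of the pathway were taken as a list of 31 genes of homologous recombination. At least 50% was covered in 31 of 31 genes in B6 and 30 of 31 in KI, against 43.0% and 41.2% of all protein-coding genes. The medians of the list were 96.1% and 94.3%. At least 90% was covered in 24 in B6 and 23 in KI, against 26.5% and 23.6% of all protein-coding genes. Brca1, which encodes a ubiquitin ligase of break repair, was covered over 99.6% in B6 and 98.8% in KI, and Meiob, which encodes the partner of SPATA22, over 91.0% and 96.7%. The exception was Rad51b, which encodes a paralog of RAD51C and spans 506 kb. It was covered over 60.7% in B6, in 52 regions, and 29.4% in KI, in 38, with 89 and 51 refined peaks. Like Mnd1, it was covered in separate pieces and more widely in B6. This was not particular to Rad51b in the list, since Spidr lay in 6 regions in B6 and 15 in KI. Meiob, in 2 regions in each strain, was covered more widely in KI. Besides Rad51b, 2 genes of the list, named after their values were seen, differed by at least 10 points: Swsap1 stood at 87.9% in B6 and 68.1% in KI, and Spidr at 97.9% and 87.3%.

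**Figure D4:**
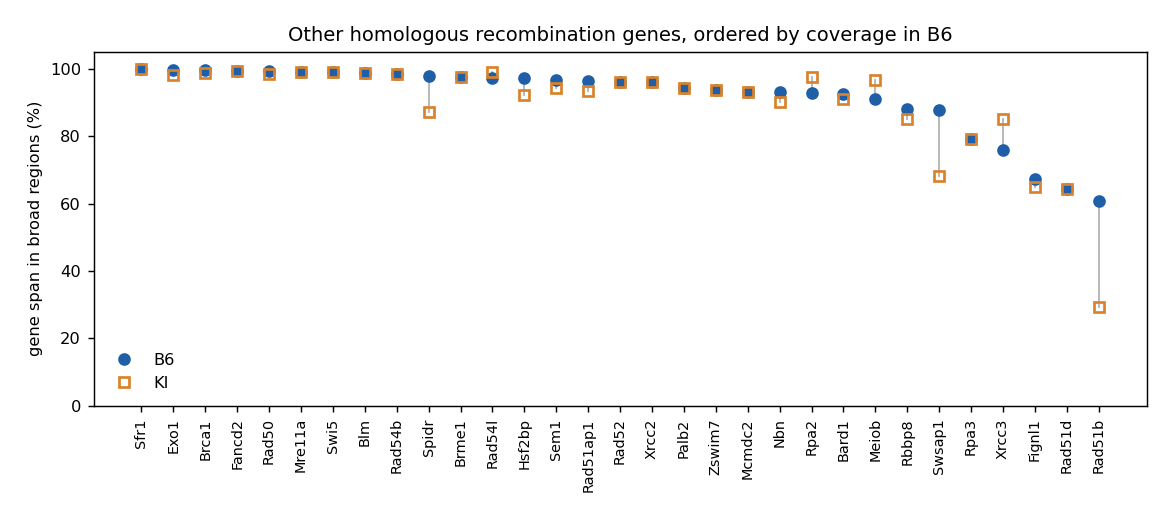
Share of the gene span in broad regions (vertical axis, %) for 31 other genes of homologous recombination, ordered by coverage in B6, with B6 as filled circles and KI as open squares joined by a line. Of the 31, 24 are at least 90% covered in B6 and 23 in KI, against 26.5% and 23.6% of all protein-coding genes. Rad51b is the only gene under 50%, at 29.4% in KI.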

How the data were processed

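Spermatocyte chromatin of B6 and KI mice was profiled by H3K36me3 ChIP-seq. The authors aligned reads to mm9 with BWA, kept reads of unique position, merged 2 biological replicates per strain and called regions with ZINBA against 1 input. The deposited values are positions (chromosome, start and end), 1 broad and 1 refined list per strain, counted from 1. A broad region that holds several refined peaks is listed as many times, and repeats were dropped. All broad starts lay on a grid of 500 bp. The lists give no count or score, and no test was made between strains. Inputs have no list of their own here, and hotspot, H3K4me3 and RNA-seq data were not used here.

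Touching broad regions were merged, and coverage is the share of a gene span in them. The domain start is taken from the first region, counted from the 5′ side, that overlaps the gene. It is the distance from the 5′ end of the gene to the 5′-side edge of that region, negative upstream. A refined peak was counted in a gene when at least 1 bp overlapped. Gene spans, transcripts and bases came from GENCODE and the reference genome of mm9 (NCBIM37), some genes under older symbols (Rad51l1 for Rad51b, 4930528F23Rik for Meiob). Rad54b has 2 entries, of which the longer was used. The members, gene lists and markers were chosen with earlier results of these data known. Genes named were the 8 members, genes that overlap them or lie in their broad regions, the listed recombination genes under 50% in either strain, and Brca1 and Meiob. The region over Dmc1 also overlapped AC117806.1, and that over Brca2 overlapped U4 and U6, for which no values are given. A gene of the fixed recombination list is not reported here, and the list counts leave it out. Other genes, and the markers given with values, were picked after their values were seen. Python 3.11.15, numpy 2.4.6, scipy 1.17.1, samtools 1.23.1 and bedtools 2.31.1 were used. The code was tested on simulated intervals, and covered bases and refined peaks equalled those of bedtools in 8 of 8 members in both strains.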

Additional observations from a re-analysis of the deposited data

How the results depend on the processing

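No paired analysis was possible because each strain has 1 pooled list and no replicate numbers are shared, and no replicate could be left out. The depth behind a region is unknown, and a gene at 0 may carry the mark below the limit of the caller. By the aligned reads that the paper gives, the merged ChIP data were deeper in KI than in B6. The part of depth in the differences between strains was not tested. A covered share was taken as kept within the Wilson 95% interval over its 500 bp steps, a start within 500 bp and a count within a factor of 1.5. These limits only sort the values and are not a test. Neighbouring steps of a region are not independent, the interval is wider for a short gene, and small changes of a count stay within the factor. By these limits, 36 values over all members were kept and 11 moved. For single genes 55 covered shares were kept and 9 moved, and 53 starts were kept, 7 moved and 4 changed sign. With only broad regions of at least 3000 bp, the covered share of all bases in KI moved from 82.4% to 77.2%, and Mnd1 was covered over 27.3% in B6 and 5.90% in KI. With only refined peaks of at least 300 bp, 8 were left in B6 and 12 in KI. With an overlap of 50% of the shorter peak, 1 refined peak per strain was shared, and with a distance of up to 500 bp, 5 were. When regions within 1000 bp were joined, the 4 starts that changed sign moved to before the gene, to -32750 bp in B6 and -23750 bp in KI for Psmc3ip, -17544 bp in B6 for Rad51c and -13742 bp in KI for Spata22, since the gap to a region upstream was then bridged. With the longest region taken as the domain, that of Mnd1 began at 49208 bp in B6 and 47208 bp in KI. Leaving out Mnd1, chosen after its values were seen, gave covered shares of 96.0% in B6 and 95.8% in KI and 8 and 11 refined peaks. The span of the shortest coding transcript, also chosen after the data were seen, raised Spata22 to 95.4% and 98.4%. With a limit of 90% in place of 50%, 6 members were covered in both strains.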

Other observations

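The genes next to the members, looked at after their values were seen, were covered to very different degrees. Coasy, which encodes an enzyme of coenzyme A synthesis and lies 5203 bp from Psmc3ip, was covered over 72.3% in both strains. Fam134c, on its other side, was covered over 97.0% in B6 and 94.9% in KI. Trim2, a gene for a ubiquitin ligase whose 3′ end lies 4652 bp from the 5′ end of Mnd1, was covered over 2.76% in B6 and 2.07% in KI, so the mark was sparse on both sides of the 5′ end of Mnd1.

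Zar1l, which starts 4465 bp from Brca2 on the other strand, was covered over 22.5% in B6 and 0% in KI, beside a value of 99.4% for Brca2 in both strains. Aspa, which encodes aspartoacylase and starts 2933 bp from Spata22 on the other strand, was covered over 66.5% in B6 and 86.2% in KI. Relative to the 5′ end of Aspa, with positions upstream negative, its region began at -2191 bp in KI, in the stretch ahead of Spata22, and at 2309 bp in B6. A KI refined peak of 237 bp lay in that stretch, from -2288 to -2052 bp relative to the 5′ end of Spata22, and touched no broad region of B6. 4933432B09Rik, 4476 bp from Dmc1, was covered over 76.9% in B6 and 86.1% in KI. These differences have no replicate error and were not tested.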
